A study of Mus musculus with 10 samples.

Results

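Interleukin-1 (IL-1) family genes and Il6 were examined in obstructed mouse kidneys. The members were chosen by gene symbol and comprise the ligands Il1a, Il1b, Il18 and Il33, the antagonist Il1rn, the soluble inhibitor Il18bp, the receptors Il1r1 and Il1r2, and Il6. All 9 were found among the 54532 genes of the count table. IL-1α and IL-1β both signal through the receptor encoded by Il1r1, which recruits the adaptor MyD88 and activates NF-κB, while Il1rn encodes an antagonist that occupies the same receptor and Il1r2 a decoy that binds ligand without signaling. IL-1β and IL-18 are made as precursors that inflammasome caspases cleave, IL-33 is released from damaged cells, and IL-18 binding protein, encoded by Il18bp, neutralizes IL-18 and is a known interferon-induced product. IL-6 acts through gp130 and STAT3, and in injured kidney these cytokines come from infiltrating myeloid cells, fibroblasts and tubular epithelium.

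Kidneys were taken from male C57BL/6 mice whose left ureter had been tied (unilateral ureteral obstruction, UUO) when they were 8 weeks old, 14 days after the operation. One group of 5 mice received PBS and the other group of 5 received dimethyl malonate (DMM), an inhibitor of succinate dehydrogenase, by intraperitoneal injection of 40 mg/kg every other day. Each kidney gave 1 RNA-seq library, and both groups were obstructed, so the comparison concerns the drug within obstruction. PBS libraries held 16457495 to 18078777 counts (median 17825223) and DMM libraries 15722527 to 19475833 (median 16794390). Levels are given as CPM, counts scaled to a common library size by TMM, and levels of different genes are compared only per kilobase of the deposited gene length (CPM per kb). The kidney was recognizable in every library by tubule genes such as Umod, at 868 CPM per kb on average, and Kap, at 3210 CPM per kb.

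Several libraries stood apart from their groups. PBS replicate 3 and DMM replicate 1 carry a weight of 0 in the deposited group means, which therefore rest on 8 libraries, and the reason is not given in the sources used here. The summed level of 18 interferon response genes was 4267 CPM in DMM replicate 1, between 552 and 737 CPM in DMM replicates 2 to 5, and between 3495 and 5470 CPM in the PBS libraries. The summed level of 11 proximal tubule genes was 10453 CPM in PBS replicate 3, against 1441 to 3971 CPM in the other PBS libraries, and 2964 CPM in DMM replicate 1, against 5835 to 9869 CPM in the other DMM libraries. PBS replicate 4 and DMM replicate 4 had the highest summed levels of 12 neutrophil genes, 157 and 140 CPM, where the other libraries had 22.0 to 73.2 CPM. The share of counts on mitochondrial genes was 3.66% in PBS replicate 3 and 1.97% to 2.30% in the other PBS libraries, and 2.30% in DMM replicate 1 and 3.79% to 5.62% in the other DMM libraries, highest in DMM replicate 4. Without PBS replicate 3 and DMM replicate 1 these shares do not overlap between the groups. DMM replicate 4 also had the fewest genes with a count, 20029 against 22898 to 24083. The results of the members below are therefore given over all 10 libraries and over the 8 libraries without PBS replicate 3 and DMM replicate 1, and named marker genes over the 8 alone.

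Across the libraries, Il33 had the highest level of the 9 genes, 28.8 ± 13.7 CPM per kb (SD, n = 10), and was above the next gene in 10 of 10 libraries. Il1b (10.1 ± 7.2 CPM per kb) and Il1r1 (8.99 ± 2.0 CPM per kb) followed and did not differ beyond their spread, Il1b being the higher of the pair in 5 of 10 libraries. Their order differed by group, with Il1b at 13.3 and Il1r1 at 8.61 CPM per kb in PBS (Il1b higher in 4 of 5 libraries) and at 6.87 and 9.37 in DMM (higher in 1 of 5). Il18bp stood at 6.76 ± 3.20 CPM per kb, below Il1r1 in 7 of 10 libraries and within its spread, and Il1rn at 4.85 ± 2.11 CPM per kb, below Il18bp in 9 of 10. By group Il18bp was at 9.34 CPM per kb in PBS, below Il1r1 in 2 of 5 libraries, and at 4.18 in DMM, below Il1r1 in 5 of 5. Il1rn had a mean of 4.55 CPM per kb in DMM, and Il18bp was above it in 4 of those 5 libraries, all but DMM replicate 4. The order went on with Il18 (3.07 ± 1.06 CPM per kb), which lay below Il1rn and above Il1r2 (1.58 ± 0.95 CPM per kb) in 10 of 10 libraries. Il6 was at 1.01 ± 1.1 CPM per kb, below Il1r2 in 9 of 10 libraries, and Il1a at 0.326 ± 0.357 CPM per kb, the lowest of the 9 genes. Il1a had between 1 and 36 counts per library and was the member that failed the filter on low counts, so 8 of 9 members were tested.

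**Figure D1:**
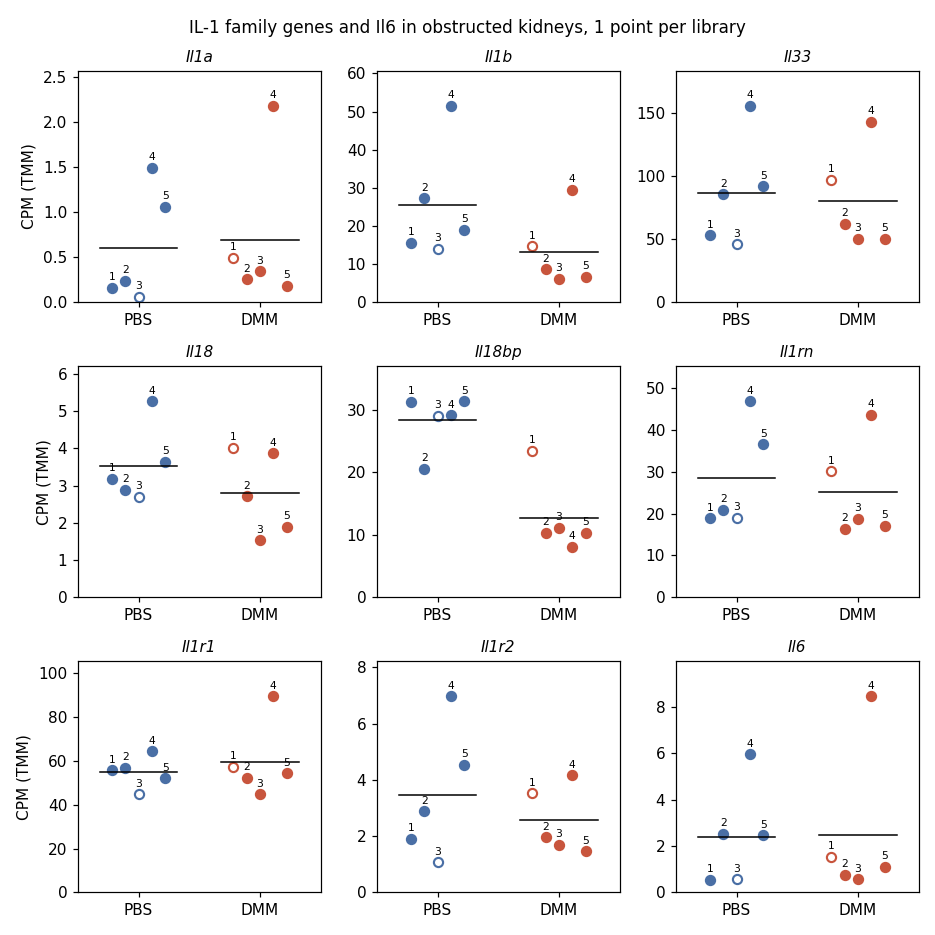
Level of each of the 9 genes (CPM, linear axes that start at 0) in every library of the PBS and DMM groups, numbered by replicate. Lines are group means of 5 libraries, and open points are PBS replicate 3 and DMM replicate 1. The 2 groups part most clearly for Il18bp, where DMM replicates 2 to 5 lie between 8.03 and 11.1 CPM and the PBS libraries between 20.5 and 31.4 CPM.

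The comparison of DMM with PBS asks whether inhibition of succinate dehydrogenase was accompanied by other transcript levels of these inflammatory genes. Il18bp was the member that passed the test, and it did so over the 8 libraries, where it fell. The transcripts of the ligands, of Il1rn, of both receptors and of Il6 did not pass in either set. Genes with a fold change above 1.5 and an adjusted p under 0.05 were called, from edgeR's quasi-likelihood test and Benjamini-Hochberg adjustment over all tested genes. The same fold with an unadjusted p under 0.05 is named the nominal threshold. Of the 8 tested members 0 were called over all 10 libraries, and the background was 0% (0 of 16505 tested genes by edgeR, 993 of which passed the nominal threshold, and 50 genes called by DESeq2). At the nominal threshold 1 member was lower, Il18bp, against 4.11% of all tested genes. Over the 8 libraries 1 member was called lower, again Il18bp, where 3.56% of 16550 tested genes were called lower and 2.73% higher. It was also the 1 member whose values in these libraries did not overlap between the groups, and 10.6% of all tested genes lay entirely lower in DMM. The median log2 fold change of the 8 tested members was -0.26 over all 10 libraries and -0.48 over the 8 libraries, and that of all tested genes was 0.02 in both sets.

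**Figure D2:**
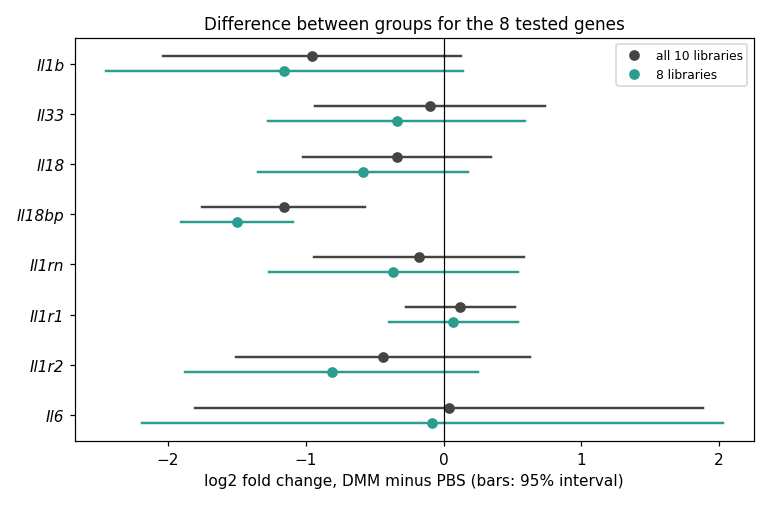
Log2 fold change of DMM over PBS for the 8 tested genes, with 95% intervals from edgeR's quasi-likelihood fit, over all 10 libraries and over the 8 libraries. The intervals of Il18bp lie below 0 in both sets, and the intervals of the other 7 genes include 0.

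Il1b encodes the main secreted IL-1 ligand of myeloid cells (chromosome 2, 129364570 to 129371139, mm10, minus strand). Il1b was at 15.6, 27.3, 14.1, 51.4 and 18.9 CPM in PBS replicates 1 to 5 and at 14.6, 8.57, 6.12, 29.5 and 6.69 CPM in DMM replicates 1 to 5. DMM replicates 2, 3 and 5 lay below every PBS library, DMM replicate 4 lay above every PBS library but replicate 4, and the groups overlapped. The log2 fold change was -0.96 over all 10 libraries (standard error 0.49, 95% interval -2.04 to 0.12, adjusted p = 0.502) and -1.16 over the 8 libraries (standard error 0.57, interval -2.45 to 0.14, adjusted p = 0.289, both from edgeR's quasi-likelihood test and Benjamini-Hochberg adjustment). Within the 8 libraries a single library decided this call, since Il1b fell by 1.99 on the log2 scale without DMM replicate 4 (edgeR, adjusted p = 0.00657). When both replicate 4 libraries were left out of the 8, a choice made after seeing the data, it fell by 1.53 (edgeR, adjusted p = 0.00184). Over its alternatives within the 8 libraries the log2 fold change ran from -1.99 to -0.70, with adjusted p between 0.00184 and 0.615. Over all 10 libraries it was -1.50 without DMM replicate 4 and -0.53 without PBS replicate 4 (edgeR, adjusted p = 0.256 and 0.783). Il1b was not called in either case.

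Il1a, the neighbor of Il1b, encodes the cell-associated ligand IL-1α. The 2 genes lie 54.6 kb apart on the same strand of chromosome 2. Il1a had 3, 4, 1, 28 and 18 counts in PBS replicates 1 to 5 and 8, 4, 6, 36 and 3 counts in DMM replicates 1 to 5. Its counts were highest in the replicate 4 library of either group, and it failed the filter on low counts. Without a filter its log2 fold change was 0.14 over all 10 libraries (interval -1.60 to 1.89) and -0.06 over the 8 (interval -1.90 to 1.78, edgeR, adjusted p = 0.960 and 0.989). An antisense gene, Gm14023, covers 8217 bp of Il1a and had 0 to 18 counts, so reads of the pair cannot be told apart where counting ignores strand.

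Il33 encodes a nuclear alarmin that signals through the receptor encoded by Il1rl1. Il33 was at 53.0, 85.5, 45.6, 155 and 91.5 CPM in PBS replicates 1 to 5 and at 96.9, 61.9, 49.9, 143 and 50.2 CPM in DMM replicates 1 to 5. Replicate 4 was again the highest library of both groups, and the ranges of the groups were nearly the same. Its log2 fold change was -0.10 over all 10 libraries (interval -0.94 to 0.73, adjusted p = 0.923) and -0.34 over the 8 (interval -1.27 to 0.59, adjusted p = 0.682, edgeR's quasi-likelihood test and Benjamini-Hochberg adjustment). The sign over all 10 libraries turned when PBS replicate 4, DMM replicate 3 or DMM replicate 5 was left out. Within the 8 the value was -0.84 without DMM replicate 4 and -0.02 without PBS replicate 4 (edgeR, adjusted p = 0.0666 and 0.991).

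Il18 encodes a ligand that drives interferon-γ production by T and NK cells. Il18 was at 3.18, 2.88, 2.70, 5.27 and 3.65 CPM in PBS replicates 1 to 5 and at 4.01, 2.71, 1.53, 3.87 and 1.88 CPM in DMM replicates 1 to 5, which are 27 to 99 counts per library. DMM replicates 3 and 5 had the lowest values and the groups overlapped. The log2 fold change was -0.34 over all 10 libraries (interval -1.02 to 0.34, adjusted p = 0.667) and -0.59 over the 8 libraries (interval -1.35 to 0.18, adjusted p = 0.362, edgeR's quasi-likelihood test and Benjamini-Hochberg adjustment). Leaving out DMM replicate 4 gave -0.88 within the 8, and leaving out PBS replicate 4 gave -0.38 (edgeR, adjusted p = 0.0516 and 0.670). Over all 10 libraries the value ran from -0.50 without DMM replicate 1 to -0.15 without PBS replicate 4 (edgeR, adjusted p = 0.418 and 0.906). Il18 shares 355 bp with Bco2 on the opposite strand, which had 27 to 108 counts, and the strand setting of the counting is not given in the sources used here.

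Il18bp (chromosome 7, 102014885 to 102018690, mm10, minus strand) encodes the secreted inhibitor of IL-18. Il18bp was at 31.3, 20.5, 29.1, 29.1 and 31.4 CPM in PBS replicates 1 to 5 and at 23.5, 10.3, 11.1, 8.03 and 10.3 CPM in DMM replicates 1 to 5. DMM replicate 1 lay above PBS replicate 2, and the other 4 DMM libraries lay below every PBS library. Over the 8 libraries Il18bp fell from 28.1 ± 5.1 to 9.94 ± 1.32 CPM (SD, n = 4 each), a log2 fold change of -1.50 (standard error 0.18, interval -1.90 to -1.09, adjusted p = 0.00228, edgeR's quasi-likelihood test and Benjamini-Hochberg adjustment). A fit with the replicate number as a block gave -1.49 without a call (edgeR, adjusted p = 0.111). Neither the labels nor the methods state whether the numbers pair the mice. The means over all 10 libraries were 28.3 ± 4.5 and 12.6 ± 6.2 CPM (SD, n = 5 each), and the log2 fold change of -1.16 (standard error 0.27, interval -1.75 to -0.57) had an unadjusted p of 0.00122 and an adjusted p of 0.378 by edgeR. The call over all 10 libraries turned on DMM replicate 1, without which the log2 fold change was -1.51 (edgeR, adjusted p = 0.000588). DESeq2 called it over all 10 libraries (log2 fold change -1.16, adjusted p = 0.0254), where DESeq2 called 0.117% of genes lower, and adjusted p over all alternatives of this set ran from 0.000588 to 0.702. The last 80 bp of Il18bp overlap Numa1 on the opposite strand, and Numa1, with 4115 to 5611 counts, had a log2 fold change of 0.05 in both sets.

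Il18bp moved with the interferon response genes. All 18 listed genes were called lower over the 8 libraries, with a median log2 fold change of -3.0, against 3.56% of all tested genes and their median of 0.02. Ifit3 was the most abundant of them per length (237 CPM per kb), and none of the 18 was at 0 in all libraries. Oasl1 fell by 3.46 and Ifit2 by 2.82 on the log2 scale over the 8 libraries (edgeR, adjusted p = 6.88e-05 and 7.45e-05), with log2 fold changes of -1.93 and -1.61 over all 10. With all 10 libraries 0 of the 18 were called by edgeR and 18 were lower at the nominal threshold, with a median log2 fold change of -1.77. The part of the interferon response in the level of Il18bp was not tested.

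**Figure D3:**
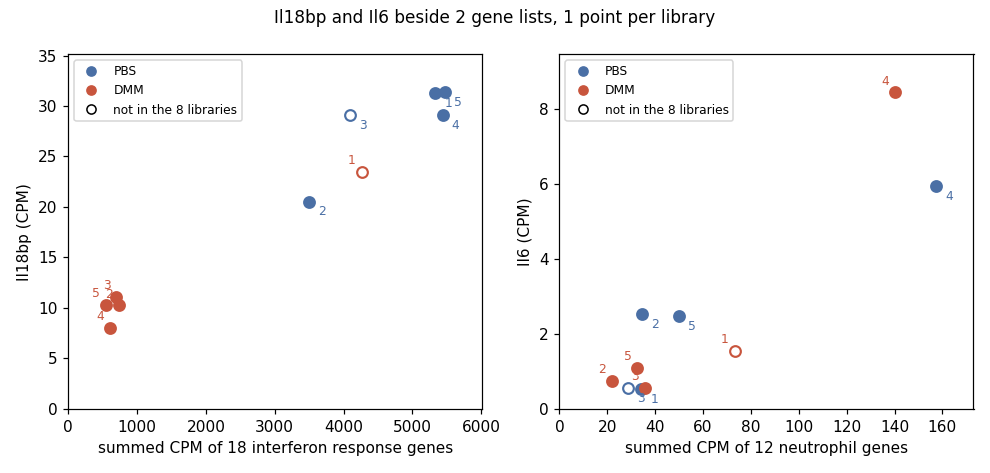
Left, Il18bp (CPM) against the summed CPM of 18 interferon response genes, and right, Il6 (CPM) against the summed CPM of 12 neutrophil genes, with 1 point per library numbered by replicate and linear axes from 0. Open points are the libraries outside the 8. On the left DMM replicate 1 (23.5 CPM of Il18bp) sits among the PBS libraries, and on the right both replicate 4 libraries, at 5.96 and 8.46 CPM of Il6, sit apart from the other 8.

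The genes whose pattern over the 10 libraries was most like that of Il18bp were H2-T22 (Pearson r = 0.998 of log2 CPM, n = 10 libraries), Lgals3bp (r = 0.996) and Irf7 (r = 0.995). The libraries form separate groups in all 4 genes, which share that split and the scaling, so these values describe likeness alone. H2-T22, an MHC class I gene with close relatives that may share its reads, was at 157 to 252 CPM in PBS libraries, 201 CPM in DMM replicate 1 and 69.6 to 90.4 CPM in DMM replicates 2 to 5. Irf7, a transcription factor of the interferon response, ranged from 352 to 952 CPM in PBS libraries, was at 488 CPM in DMM replicate 1 and was at 30.4 to 80.1 CPM in the other DMM libraries.

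Promoter sequences of these 4 genes are shown because their transcripts moved together. They come from RefSeq (GRCm38.p6) and span 250 bases before to 50 bases after each gene start of RefSeq, written 5′ to 3′ along the gene. The RefSeq start of Il18bp, 102018232, lies 458 bases inside the gene as the count table bounds it, and those of H2-T22, Lgals3bp and Irf7 lie 5, 133 and 57 bases inside. Il18bp is at chr7:102018183-102018482, H2-T22 at chr17:36042693-36042992, Lgals3bp at chr11:118401910-118402209 and Irf7 at chr7:141266375-141266674, all on the minus strand. Capitals mark matches on either strand to AAANNGAAA (the core of an interferon-stimulated response element, ISRE), TTCNNNGAA (a STAT site, GAS), TTGCNNAA (a C/EBP site) or the NF-κB consensus.
Il18bp: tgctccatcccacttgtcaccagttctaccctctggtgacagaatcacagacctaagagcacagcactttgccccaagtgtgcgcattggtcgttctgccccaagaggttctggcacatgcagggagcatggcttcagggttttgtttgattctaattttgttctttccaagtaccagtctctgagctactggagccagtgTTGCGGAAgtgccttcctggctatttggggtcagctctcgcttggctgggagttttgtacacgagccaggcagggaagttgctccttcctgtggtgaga
H2-T22: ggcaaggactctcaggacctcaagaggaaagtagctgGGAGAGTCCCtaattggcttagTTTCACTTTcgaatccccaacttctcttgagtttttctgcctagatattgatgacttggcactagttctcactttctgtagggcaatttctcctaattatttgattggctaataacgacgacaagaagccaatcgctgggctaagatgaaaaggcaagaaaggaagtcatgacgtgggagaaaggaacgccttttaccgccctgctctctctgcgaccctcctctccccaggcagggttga
Lgals3bp: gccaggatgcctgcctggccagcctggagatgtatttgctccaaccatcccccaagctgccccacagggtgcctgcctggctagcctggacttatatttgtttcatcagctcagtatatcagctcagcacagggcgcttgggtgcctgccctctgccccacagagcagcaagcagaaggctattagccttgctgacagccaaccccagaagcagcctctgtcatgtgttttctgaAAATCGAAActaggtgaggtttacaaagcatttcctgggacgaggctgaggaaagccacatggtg
Irf7: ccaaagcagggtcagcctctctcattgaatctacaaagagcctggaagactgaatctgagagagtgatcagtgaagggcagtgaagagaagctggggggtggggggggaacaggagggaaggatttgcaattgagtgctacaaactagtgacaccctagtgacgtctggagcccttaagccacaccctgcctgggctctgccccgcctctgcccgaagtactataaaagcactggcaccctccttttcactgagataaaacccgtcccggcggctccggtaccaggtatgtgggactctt
The window of Il18bp held 1 match, to the C/EBP letters, 49 bases before its RefSeq start. H2-T22 held 1 ISRE core and 1 NF-κB match, Lgals3bp 1 ISRE core, and Irf7 no match to the 4 motifs. Of all 32851 promoters in the RefSeq table, 10.6% held the ISRE core, 8.3% the GAS letters, 10.8% the C/EBP letters and 8.46% the NF-κB consensus. All 9 members matched the table, with 13 promoters. Among them Il1rn held 1 ISRE core, shared by 2 overlapping windows whose starts lie 8438 and 8518 bases inside the gene. Its window with a start 7 bases inside held no match. Il1r2 held a GAS match, Il1r1 and Il33 a C/EBP match in 1 of their 2 windows each, and Il6 a C/EBP match 128 bases and an NF-κB match 44 bases before its start. The other window of Il1r1 also held an NF-κB match. A match describes letters and not the binding of a factor.

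The balance between Il18bp and its ligand was set as the ratio of their levels per kb. The ratio of Il18bp to Il18 was 3.33, 2.41, 3.64, 1.87 and 2.91 in PBS replicates 1 to 5 and 1.98, 1.28, 2.43, 0.705 and 1.84 in DMM replicates 1 to 5. The DMM libraries were at the lower end, with overlap, and DMM replicate 4 was the library with less Il18bp than Il18 per length. The log2 ratio differed by -0.86 over all 10 libraries (exact two-sided permutation test over 252 relabelings, p = 0.0397, adjusted p = 0.0595 over 3 ratios). Over the 8 libraries the difference was also -0.86 (exact permutation test over 70 relabelings, p = 0.0857, adjusted p = 0.129), and the smallest p that 4 against 4 allow is 0.0286. Without DMM replicate 4 the difference within the 8 was -0.52 (exact permutation test, adjusted p = 0.171).

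Il1rn, the receptor antagonist gene of chromosome 2 (24336853 to 24351494, plus strand), was at 18.9, 20.9, 19.1, 46.9 and 36.6 CPM in PBS replicates 1 to 5 and at 30.1, 16.4, 18.7, 43.7 and 17.0 CPM in DMM replicates 1 to 5. The ranges of both groups were close to each other, with replicate 4 at the top of each. Its log2 fold change was -0.18 over all 10 libraries (interval -0.94 to 0.59, adjusted p = 0.846) and -0.36 over the 8 (interval -1.27 to 0.54, adjusted p = 0.644, edgeR's quasi-likelihood test and Benjamini-Hochberg adjustment). Without PBS replicate 4 it was 0.08 over the remaining 9 libraries. Within the 8 it ran from -0.83 without DMM replicate 4 to -0.09 without PBS replicate 4 (edgeR, adjusted p = 0.0684 and 0.940).

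The antagonist was also set against its ligand. The ratio of Il1rn to Il1b per kb was 0.417, 0.264, 0.467, 0.314 and 0.667 in PBS replicates 1 to 5 and 0.709, 0.658, 1.05, 0.511 and 0.875 in DMM replicates 1 to 5. PBS replicates 1 to 4 lay below every DMM library, and PBS replicate 5 lay among them. The log2 ratio differed by 0.87 over all 10 libraries (exact two-sided permutation test, p = 0.0238, adjusted p = 0.0595 over 3 ratios) and by 0.93 over the 8 (exact permutation test, p = 0.0857, adjusted p = 0.129), so neither passed the adjustment. Without PBS replicate 5 the difference over the other 9 libraries was 1.05 and passed (exact permutation test, adjusted p = 0.0476), and over all left-out libraries the adjusted p ran from 0.0476 to 0.143.

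Il1r1 encodes the signaling receptor for IL-1α and IL-1β. Il1r1 was at 55.7, 57.0, 44.8, 64.3 and 52.1 CPM in PBS replicates 1 to 5 and at 57.2, 52.4, 44.8, 89.5 and 54.3 CPM in DMM replicates 1 to 5. Its spread relative to its mean was the smallest of the 9 members, and DMM replicate 4 was the highest library. The log2 fold change was 0.12 over all 10 libraries (interval -0.27 to 0.52, adjusted p = 0.794) and 0.07 over the 8 (interval -0.40 to 0.54, adjusted p = 0.876, edgeR's quasi-likelihood test and Benjamini-Hochberg adjustment). Without DMM replicate 4 it was -0.07 over the remaining 9 libraries.

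Il1r2, the decoy receptor gene, lies 99.8 kb from Il1r1 on the same strand of chromosome 1, and 4 of the 8 other listed family receptor genes lie within 1 Mb of Il1r1. Il1r2 was at 1.91, 2.88, 1.07, 6.97 and 4.53 CPM in PBS replicates 1 to 5 and at 3.52, 1.95, 1.70, 4.17 and 1.46 CPM in DMM replicates 1 to 5. PBS replicate 4 was the highest library and PBS replicate 3 the lowest, so the PBS range enclosed the DMM range. Its log2 fold change was -0.44 over all 10 libraries (interval -1.51 to 0.63, adjusted p = 0.720) and -0.81 over the 8 (interval -1.88 to 0.25, adjusted p = 0.364, edgeR's quasi-likelihood test and Benjamini-Hochberg adjustment). It was -0.02 over all 10 when PBS replicate 4 was left out, and within the 8 it was -0.42 without that library and -1.26 without DMM replicate 4 (edgeR, adjusted p = 0.722 and 0.0551). The log2 ratio of Il1r2 to Il1r1 differed by -0.37 over all 10 libraries and by -0.79 over the 8 (exact permutation tests, adjusted p = 0.444 and 0.171). Over all 10 it was -0.64 without PBS replicate 3, -0.11 without PBS replicate 4, -0.18 without PBS replicate 5 and -0.22 without DMM replicate 5.

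Il6 encodes the ligand of the IL-6 receptor (chromosome 5, 30013114 to 30019981, mm10, plus strand). Il6 was at 0.530, 2.53, 0.562, 5.96 and 2.47 CPM in PBS replicates 1 to 5 and at 1.54, 0.756, 0.567, 8.46 and 1.09 CPM in DMM replicates 1 to 5, which are 10 to 140 counts per library. The highest library of each group was replicate 4, and the spread within groups was wider than any difference between them. The log2 fold change was 0.04 over all 10 libraries (standard error 0.84, interval -1.80 to 1.89, adjusted p = 0.988) and -0.08 over the 8 (standard error 0.93, interval -2.19 to 2.03, adjusted p = 0.971, edgeR's quasi-likelihood test and Benjamini-Hochberg adjustment). DMM replicate 4 set this value, which was -1.28 over all 10 libraries without it and 0.71 without PBS replicate 4 (edgeR, adjusted p between 0.354 and 0.990 over the alternatives of this set). Within the 8 it was -1.83 without DMM replicate 4, 0.55 without PBS replicate 4 and -1.18 without both (edgeR, adjusted p = 0.0779, 0.842 and 0.172). The intervals allow a difference of several fold in either direction, and none was called.

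Il1b and Il6 were also set against Gapdh, the reference gene of the qPCR in the methods. Gapdh had between 48 and 123 counts per library, fewer than Hprt with 1382 to 2090 or Actb with 17981 to 35670, and mouse Gapdh has many near-identical pseudogenes, so that its count is an uncertain divisor. The log2 ratio of Il1b to Gapdh differed by -0.80 over all 10 libraries (exact two-sided permutation test, p = 0.238, adjusted p = 0.476 over 2 genes) and by -1.10 over the 8 (exact permutation test, p = 0.200, adjusted p = 0.400). The log2 ratio of Il6 to Gapdh differed by 0.08 and by -0.34 (exact permutation tests, adjusted p = 0.913 and 0.829). Single libraries moved these values. Il1b relative to Gapdh was at -1.24 over all 10 libraries and -1.76 over the 8 without DMM replicate 4, and at -0.43 and -0.68 without DMM replicate 5. Il6 relative to Gapdh ran from -0.62 without DMM replicate 4 to 0.44 without PBS replicate 4 over all 10, and from -1.33 without DMM replicate 4 to 0.08 without DMM replicate 3 over the 8. With Hprt in place of Gapdh, chosen after seeing the data, the difference for Il1b was -1.24 over all 10 libraries and -1.53 over the 8 (exact permutation tests, adjusted p = 0.111 and 0.171), and that for Il6 was -0.35 and -0.76 (adjusted p = 0.683 and 0.429, tested the same way).

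PBS replicate 4 was the highest PBS library for 8 of 9 members, DMM replicate 4 was the highest DMM library for 7 of 9, and for 6 of 9 these were the highest pair of all 10. Of all 16505 tested genes, 23.3%, 37.7% and 6.59% did the same. Il18bp went otherwise, with DMM replicate 4 the lowest of all 10 libraries. The same 2 libraries led for the IL-36γ gene, named Il1f9 in the files, at 5.64 and 8.28 CPM against 0.053 to 1.35 CPM elsewhere. The neutrophil list had 0 of 8 tested genes called in either set, its most abundant gene was S100a9 (15.2 CPM per kb), and none of its 12 genes was at 0 in all libraries. The part of neutrophil content in the levels of these members was not tested. In whole kidney RNA, fewer cells of a type and less RNA per cell cannot be told apart.

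Across the 10 libraries, Il1b was most like Pask (r = 0.971), Mmp3 (r = 0.965) and Robo1 (r = 0.951), and Il1rn most like Msr1 (r = 0.969), Clec4e (r = 0.956) and Clec4d (r = 0.955), which encode receptors of myeloid cells. Il6 was most like Fcgr3 (r = 0.958), Plod2 (r = 0.949) and Osm (r = 0.949), and Il33 most like Cdh23, Fam57a and Has2 (each r = 0.967). Il18 was most like Arf4 (r = 0.980), Mefv (r = 0.968) and Cd53 (r = 0.966), Il1r1 most like Jag1 (r = 0.972), Stox2 (r = 0.969) and Hoxc8 (r = 0.969), and Il1r2 most like Arpc2 (r = 0.963), Khdrbs1 (r = 0.960) and Fam57a (r = 0.957), which also stood beside Il33. All are Pearson correlations of log2 CPM over n = 10 libraries. Between 37 and 274 genes had r above 0.9 with each of these members, and 305 genes with Il18bp. The named genes are therefore not particular to a member.

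Of the 5 listed family ligands outside the members, 1 passed the filter on low counts and was tested, the IL-36α gene, named Il1f6 in the files, which was at 8.95 to 15.1 CPM in PBS libraries and 11.7 to 28.6 CPM in DMM libraries. DMM replicates 3 and 5, at 28.6 and 27.1 CPM, stood above all others. Its log2 fold change was 0.65 over all 10 libraries and 0.79 over the 8 (edgeR, adjusted p = 0.430 and 0.185), and Il1f6 was higher at the nominal threshold over all 10, as 1.91% of all tested genes were.

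Of the family receptors and accessory chains, 0 of 6 tested genes were called in either set, with a median log2 fold change of -0.14 over the 8 libraries. Sigirr, which encodes an inhibitory receptor of the family, had the smallest p over the 8 libraries, with 30.1 ± 3.8 CPM in PBS and 48.3 ± 10.5 CPM in DMM (SD, n = 4 each, log2 fold change 0.68, edgeR, adjusted p = 0.0551). PBS replicate 3 stood at 48.1 CPM and DMM replicate 1 at 28.9 CPM, and over all 10 libraries the difference was 0.40 on the log2 scale. Il18r1, a chain of the IL-18 receptor, and Il1rl2, the IL-36 receptor, had log2 fold changes of -0.78 and -0.39 over the 8 libraries (edgeR, adjusted p = 0.134 and 0.232) and -0.53 and -0.22 over all 10.

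Downstream of the IL-1 receptor, 1 of 16 tested genes was called lower and 1 higher over the 8 libraries (3.56% and 2.73% of all tested genes), with a median log2 fold change of 0.05. Myd88, the adaptor of IL-1 family receptors, fell from 68.0 ± 7.7 to 39.1 ± 8.2 CPM (SD, n = 4 each, log2 fold change -0.80, edgeR, adjusted p = 0.0247), and Chuk, which encodes the kinase IKKα, rose by 0.61 (adjusted p = 0.0192). Nfkb1 had a log2 fold change of -0.36 (edgeR, adjusted p = 0.0693). Their log2 fold changes over all 10 libraries were -0.57, 0.39 and -0.20, and 0 of the 16 were called. PBS replicate 3 and DMM replicate 1 stood at 126 and 92.0 CPM for Chuk and at 57.5 and 65.1 CPM for Myd88.

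Genes that process and release IL-1β and IL-18 had the most calls among the pathway lists. Over the 8 libraries 5 of 14 tested genes were called lower and 0 higher, against 3.56% and 2.73% of all tested genes, with a list median log2 fold change of -0.59. P2rx7, an ATP-gated channel that triggers release, fell from 37.3 ± 3.5 to 20.7 ± 2.9 CPM (SD, n = 4 each, log2 fold change -0.85, edgeR, adjusted p = 0.00955). The DNA sensor gene Aim2 fell by 1.20, the inflammasome adaptor gene Pycard by 0.71, Casp4, a caspase of the noncanonical inflammasome, by 0.84 and the pore protein gene Gsdmd by 1.20 on the log2 scale (edgeR, adjusted p = 0.0122, 0.0135, 0.0367 and 0.0392). With all 10 libraries 0 of the 14 were called and 6 were lower at the nominal threshold, and the log2 fold changes of these 5 genes were -0.60, -0.79, -0.61, -0.59 and -0.80. DMM replicate 1 was at 33.9 CPM for P2rx7, 10.2 CPM for Aim2, 39.1 CPM for Gsdmd and 37.3 CPM for Casp4, each within the range of the PBS libraries, and at 26.2 CPM for Pycard, below every PBS library (27.4 to 32.6 CPM).

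In the IL-6 family, 2 of 14 tested ligand and receptor genes were called lower over the 8 libraries and 0 higher (3.56% and 2.73% of all tested genes), with a median log2 fold change of -0.16. The IL-27 subunit gene Il27 had 10 to 28 counts in the 4 PBS libraries and 0 to 5 in the 4 DMM libraries (log2 fold change -2.76, edgeR, adjusted p = 0.0367), and it had 3 counts in PBS replicate 3 and 20 in DMM replicate 1. Il27 passed the filter on low counts through the PBS libraries alone (4 of 4 over its limit against 0 of 4), so it had to differ, and its call adds no support to the count of the list. Its receptor gene Il27ra fell from 11.9 ± 0.3 to 7.76 ± 1.09 CPM (SD, n = 4 each, log2 fold change -0.62, edgeR, adjusted p = 0.0429). Both genes had smaller log2 fold changes over all 10 libraries, -1.26 and -0.39, and 0 genes of the list were called there.

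Of the genes that carry the IL-6 signal, 2 of 10 were called lower over the 8 libraries and 0 higher (against the same 3.56% and 2.73%), with a median log2 fold change of -0.19. Socs1, which encodes a feedback inhibitor of JAK kinases, fell from 14 ± 3 to 2.58 ± 1.79 CPM (SD, n = 4 each, log2 fold change -2.44, edgeR, adjusted p = 0.0463). Tyk2 had a log2 fold change of -0.42 (edgeR, adjusted p = 0.103). Socs1 and Tyk2 were at -1.51 and -0.34 over all 10 libraries, with 0 genes of the list called and 2 lower at the nominal threshold.

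Among the listed response genes of IL-1 and IL-6, 3 of 26 tested genes were called higher over the 8 libraries and 0 lower, against 2.73% and 3.56% of all tested genes, and the list median was -0.36. The 3 were the fibrinogen chain genes, which IL-6 induces in liver. Fgb rose from 9.24 ± 2.58 to 29.3 ± 5.4 CPM, Fgg from 41.3 ± 12.5 to 168 ± 67 CPM and Fga from 52.4 ± 13.6 to 183 ± 88 CPM (SD, n = 4 each, edgeR, adjusted p = 0.00460, 0.00875 and 0.0256). Their log2 fold changes were 1.66, 2.02 and 1.80 over the 8 libraries and 1.51, 1.72 and 1.53 over all 10, where 0 were called and each had an adjusted p of 0.378 (edgeR). DMM replicate 1 was at 6.79, 40.5 and 45.2 CPM for these genes. Of the partners of IL-33 and IL-1 in type 2 and IL-17 responses, 0 of 6 tested genes were called in either set, Il22 was at 0 in all libraries, and Il12b, Il17ra and Areg had log2 fold changes of -2.23, 0.21 and -0.40 over the 8 libraries (edgeR, adjusted p = 0.183, 0.491 and 0.577) and -1.56, 0.21 and -0.01 over all 10.

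Markers of cells that make or answer these cytokines are given beside the members. Over the 8 libraries 4 of 15 monocyte and macrophage genes were called lower and 0 higher, against 3.56% and 2.73% of all tested genes, among them Ly6c2, Cd68 and Ms4a7, which fell by 2.85, 0.97 and 1.48 on the log2 scale (edgeR, adjusted p = 0.00713, 0.0108 and 0.0139). The summed level of that list was 2655, 2675, 2116, 2457 and 2879 CPM in PBS replicates 1 to 5 and 2500, 1807, 1447, 1285 and 1480 CPM in DMM replicates 1 to 5, with Lyz2 the most abundant gene (443 CPM per kb). DMM replicate 4 had the lowest summed level of this list beside the highest Il1b of its group. Of dendritic cell genes 2 of 8 were called lower, Itgax (most abundant, 10.1 CPM per kb) and Ccr7, which fell by 1.30 and 1.64, and of T and NK cell genes 1 of 12, Cd4, which fell by 1.19, with Trac the most abundant at 5.84 CPM per kb. Of fibroblast genes 4 of 10 were called lower, including Postn, Fbln1 and Col1a2, which fell by 1.78, 1.24 and 1.11, with Col1a1 the most abundant at 321 CPM per kb. The summed fibroblast level was 6754, 9917, 5353, 14649 and 9338 CPM in PBS replicates 1 to 5 and 11433, 5397, 3791, 7416 and 4363 CPM in DMM replicates 1 to 5, and PBS replicate 4 led it as it led Il33. DMM replicate 4 ranked 2 of 10 for Il33. In the fibroblast sum it lay below DMM replicate 1 and PBS replicates 2, 4 and 5.

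Of proximal tubule genes 4 of 11 were called higher over the 8 libraries and 0 lower, against 2.73% and 3.56% of all tested genes, among them Slc5a12, Cubn and Lrp2, which rose by 2.11, 1.73 and 1.97, and of genes of the loop, distal tubule and collecting duct 4 of 11, among them Slc26a4, Slc12a1 and Calb1, which rose by 1.06, 1.53 and 1.86 on the log2 scale. The lists of neutrophils, B cells (6 tested, Cd79b at 2.71 CPM per kb), mast cells and basophils (1 tested, Ms4a2 at 0.193 CPM per kb), endothelium (8 tested, Plvap at 128 CPM per kb), injured tubule (10 tested, median log2 fold change -0.09, Spp1 at 8700 CPM per kb) and podocytes (6 tested, Podxl at 65.0 CPM per kb) had 0 genes called over the 8 libraries. With all 10 libraries 0 genes of any list were called by edgeR, and the nominal threshold was passed in the lower direction by 7 of 15 monocyte and macrophage genes, 2 of 8 dendritic cell, 6 of 12 T and NK cell and 1 of 10 fibroblast genes, against 4.11% of all tested genes, and in the higher direction by 2 of 11 proximal tubule genes and 1 of 11 of the loop, distal tubule and collecting duct, against 1.91%. The part of these cell types in the levels of the members was not tested.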

How the data were processed

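Per the methods and the submitters' processing notes, reads from a NovaSeq X Plus run were aligned to mm10, and HISAT2 2.0.5 is the tool the notes name. The counting tool, annotation release and strand setting are not given in the sources used here. For each of 10 libraries the authors deposited an unnormalized read count per gene, and these counts were used for every test. FPKM values that the authors deposited were not used. The deposited group means, a signal of counts divided by size factors, served to find by least squares which libraries enter them. The deposited gene length, of unstated source, was used for levels per kb, and the columns with the authors' fold changes and p-values were not used.

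Genes were kept by filterByExpr, scaled by TMM and tested by edgeR 4.0.16 (R 4.3.3) quasi-likelihood with Benjamini-Hochberg adjustment over 16505 genes for 10 libraries and 16550 for 8. CPM of each library uses TMM over all 10. Standard errors come from the log2 fold change and its F statistic. Ratios had 0.5 counts added and exact two-sided permutation tests. Genes beside the members were named by rule: of each pathway list the genes called over the 8 libraries, at most 5, or the 3 of smallest p where fewer than 3 were called, of each marker list the most abundant per kb and at most 3 called, and for each member above 1 CPM the 3 most correlated genes. Il1f9, Il22, Hprt and Actb were named after their values were seen. Values of some genes that the rule names are not reported here, though counts and sums of lists include them. Older symbols of 4 listed genes were found through RefSeq synonyms. The members and lists were chosen with earlier results of these data known, the 8 libraries too, and the sets share libraries, so neither checks the other. The alternatives were DESeq2 1.42.0, scaling by RLE or by library size, other filters on low counts, no fold threshold, a replicate block, single libraries left out, 2 counts added to ratios and, after seeing the data, both replicate 4 libraries left out and Hprt in place of Gapdh. The steps were tested on simulated counts.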

Additional observations from a re-analysis of the deposited data

Results flagged for a closer look

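Among 28 groups of 5 values (9 members and 5 ratios in PBS and in DMM), 5 held a library far from the rest, by the gap to its nearest neighbor over the range of the group. Chance does this in about 1 in 20 groups of normally distributed values, which CPM values of members with few counts need not be. Groups that share a library are not independent. DMM replicate 4 was far above the other DMM libraries for Il1a (2.17 CPM), Il6 (8.46 CPM) and Il1r1 (89.5 CPM). For Il18bp, DMM replicate 1 was far above the other DMM libraries at 23.5 CPM, and PBS replicate 2 was far below the other PBS libraries at 20.5 CPM.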

How the results depend on the processing

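Over the 8 libraries Il18bp kept its call in each alternative but the replicate block, and its log2 fold change ran from -1.62 to -1.39. The log2 fold changes of Il1b, Il18 and Il1r2 were below 0 in every alternative of both sets, though Il18 and Il1r2 were never called. That of Il1r2 came to -0.02 over all 10 libraries without PBS replicate 4. Over all 10 libraries 50 genes and 1 member were called by DESeq2, 0 to 486 genes and 0 to 1 members when single libraries were left out, and 1042 genes and 1 member over the 8 libraries. The 486 calls came without DMM replicate 1. Within the 8 libraries DESeq2 called 1660 genes, leaving out single libraries gave 407 to 2410 genes and 1 to 2 members, the highest without DMM replicate 4, and leaving out both replicate 4 libraries gave 2064 genes and 2 members. With library size alone 276 genes were higher and 700 lower over the 8 libraries, against 452 and 590, and the median over all genes was -0.09 in place of 0.02.

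Same-numbered libraries showed no clear tendency to deviate together, with correlations from -0.22 to 0.34 and 2 of 5 above 0.1. Of the PBS libraries, 1 of 5 was most like the DMM library of its number. These few values give no clear sign that the numbers pair the mice, and they cannot exclude it. With the replicate number as a block, 0 genes and 0 members were called over the 8 libraries, Il18bp had a log2 fold change of -1.49 (edgeR, adjusted p = 0.111), and Il6 over all 10 had -0.18 in this block fit. Il1b had -1.05 over all 10 and -1.32 over the 8 with the block (edgeR, adjusted p = 0.251 and 0.134).

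The signs that turned were those of members far from the threshold. Over all 10 libraries Il6 was at -0.14 with library size alone, -0.019 without a filter, -0.083 over the 8 libraries and -0.61 without both replicate 4 libraries, and between -1.28 and 0.71 with single libraries left out. Without single libraries Il1rn ran from -0.47 to 0.079, Il33 from -0.41 to 0.22 and Il1r1 from -0.069 to 0.21, and Il1r1 was at -0.00011 without both replicate 4 libraries. Within the 8 libraries Il1r1 was at -0.068 with library size alone and -0.12 without both replicate 4 libraries, and single libraries moved it from -0.18 to 0.19 and Il6 from -1.83 to 0.55. Il6 relative to Gapdh ran from -0.62 to 0.44 over all 10 and from -1.33 to 0.077 over the 8 without single libraries, and was -0.35 with Hprt over all 10.

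With 2 counts added, the ratios of Il1rn to Il1b (0.86) and of Il18bp to Il18 (-0.87) passed over all 10 libraries (exact permutation tests, adjusted p = 0.0476 each), and the former ran from 0.71 to 1.05 without single libraries. The cause was not tested in these cases. Counts of Il1a and Il6 limit what their values can show, and Il1a had a value without a filter and by DESeq2 alone.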

Other observations

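The IL-36 receptor antagonist gene, named Il1f5 in the files, failed the filter on low counts and belongs to no comparison above. It had 5, 8, 5, 4 and 3 counts in PBS replicates 1 to 5 and 7, 8, 19, 11 and 12 counts in DMM replicates 1 to 5. Il1f8, the IL-36β gene, had 2 counts in PBS replicate 3 and 0 in the other libraries.

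Casp1, which cleaves the IL-1β and IL-18 precursors, was not called over the 8 libraries. Its values did not overlap between the groups there, and 10.6% of all tested genes also lay entirely lower in DMM. The naming rule did not pick Casp1. It was at 9.45 ± 0.80 CPM in PBS and 5.24 ± 2.0 CPM in DMM (SD, n = 4 each, log2 fold change -0.85, edgeR, adjusted p = 0.101), with 9.01 CPM in DMM replicate 1 and a log2 fold change of -0.65 in the set of 10 (edgeR, adjusted p = 0.413). Nlrp3, the sensor of the inflammasome best known for IL-1β, had a log2 fold change of -0.28 (edgeR, adjusted p = 0.673), and -0.12 with all 10. It was not picked by the rule either.

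Among the genes that carry the IL-6 signal, Stat3 and Socs3 had differences near 0 between the groups. Of the 10 genes of that list, 2 were called lower over the 8 libraries. Stat3 was at 315 ± 10 CPM in PBS and 312 ± 27 CPM in DMM, and its feedback inhibitor Socs3 at 103 ± 28 and 95.3 ± 33.8 CPM (SD, n = 4 each, over the 8 libraries). Their log2 fold changes were -0.01 and -0.11 (edgeR, adjusted p = 0.956 and 0.870), and over all 10 libraries 0.04 and -0.01. Stat3 and Socs3 were named after their values were seen.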
